A study of Mus musculus with 6 samples.

Results

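RNA levels of 37 glycolysis and hypoxia response genes were examined in MC38 tumors from mice treated with GB2 or PBS. In GB2 a disulfide bond holds together MSA-2, which activates STING, and artesunate, which inhibits TREM2, and PBS is the control. MC38 is a mouse colon carcinoma line, and the tumors were taken from subcutaneous sites in female C57BL/6 mice that were 6 weeks old at purchase. The comparison held 3 PBS tumors (dose 0 mg/kg) and 3 GB2 tumors, for which the MC38 model of the study gives a dose of 10 mg/kg that is not stated separately for the sequenced tumors. No genotype, transgene or further treatment is given for either group, and both groups share the implanted line and the host strain. Bulk RNA-seq averages the RNA of tumor cells, immune cells and stroma, so fewer cells of a type and less RNA per cell cannot be told apart.

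The members were taken by gene name from the deposited table of 33965 genes. The 37 names matched 38 rows, because Aldoa has a second row (ENSMUSG00000114515) with 69 to 122 counts per tumor against 223286 to 281803 for the main row (ENSMUSG00000030695). All 38 rows passed the filter on low counts, so no member was left out. By role, 17 members are glycolytic enzymes, 3 regulate the flux through glycolysis or the oxidation of pyruvate, and 4 carry glucose or lactate. Another 4 are HIF subunits or prolyl hydroxylases, and 9 are other hypoxia targets with no enzymatic step in glycolysis.

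Glycolysis splits glucose into pyruvate, and lactate dehydrogenase turns pyruvate into lactate when it is not oxidised in mitochondria. In well-oxygenated cells the EGLN prolyl hydroxylases mark the HIF alpha subunits for destruction by the VHL ubiquitin ligase. When oxygen is low the subunits persist, pair with ARNT and raise the transcription of glycolytic enzymes, glucose transporters and other targets, and solid tumors are known for strong expression of both sets. HIF is controlled mostly through protein stability, so the RNA of Hif1a is not a measure of its activity.

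Total counts ran from 64764405 to 83690056 per library, with the 3 GB2 libraries the largest. PBS tumor 1 stood apart on the first principal component of all tested genes (score -122 against -1.41 to 44.4 in the other tumors). MC38 tumors had low RNA of epithelial markers. The summed level of 9 such genes was 6.85 to 13.0 CPM (the counts of a gene relative to the scaled total of its library), Epcam was at most 1.01 CPM, and Cdx2 was listed at 0 in every tumor but PBS tumor 3. Stromal and myeloid markers were higher in the GB2 tumors. All 12 macrophage markers were higher in every GB2 tumor than in any PBS tumor. Their summed level was 69.3 to 97.3 CPM in PBS and 271 to 372 CPM in GB2 tumors. So were all 10 fibroblast markers (320 to 560 against 1067 to 1513 CPM). The same held for 9 of 10 endothelial markers (95.5 to 107 against 178 to 197 CPM), and for 8.61% of all genes. The remaining endothelial marker, Vwf, had a log2 fold change of -0.48 and groups that overlapped. Erythroid markers summed to 7479, 2696 and 509 CPM in PBS tumors 1, 2 and 3 and to 1273, 116 and 94.9 CPM in GB2 tumors 1, 2 and 3. The part of these differences in the results on the members was not tested.

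Of the 38 member rows, 30 had a fitted change below 0 in GB2 tumors (78.9%, against 51.7% of all 19602 genes tested). The other 8 had one above 0 (21.1%, against 48.3%). The count below 0 was 28 with total counts only and 26 with limma on FPKM. With each tumor left out it ran from 27 (without GB2 tumor 1 or GB2 tumor 3) to 32 (without PBS tumor 1). The members were chosen with earlier results of these data known, so no p is given for this share. The hypoxia targets Ankrd37, P4ha2 and Ddit4 had the smallest p values among the members. The regulator Pfkfb3 was the member with the largest difference in the opposite direction. At the limits of the study (adjusted p under 0.05 and at least 2-fold), edgeR's quasi-likelihood test called 0 members and 0 of all genes (0%), and the smallest adjusted p was 0.276 among the members and 0.166 among all genes. At an unadjusted p under 0.05, 4 members were lower (10.5%, against 2.24% of all genes) and 1 was higher (2.63%, against 4.69%). The 5 members were Ankrd37, P4ha2, Ddit4, Egln1 and Pfkfb3. Together they were 13.2% of the member rows, and among all genes 1360 had such a p (6.94%). Without PBS tumor 1, 8 members had one (21.1%, against 9.02% of all genes). DESeq2 gave 3 members, Ankrd37, Ddit4 and P4ha2, an adjusted p under 0.05, all lower in GB2 tumors and all under 2-fold. By the same tool 2.18% of all genes had an adjusted p under 0.05, and 0.255% of all genes had one and were lower.

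**Figure D1:**
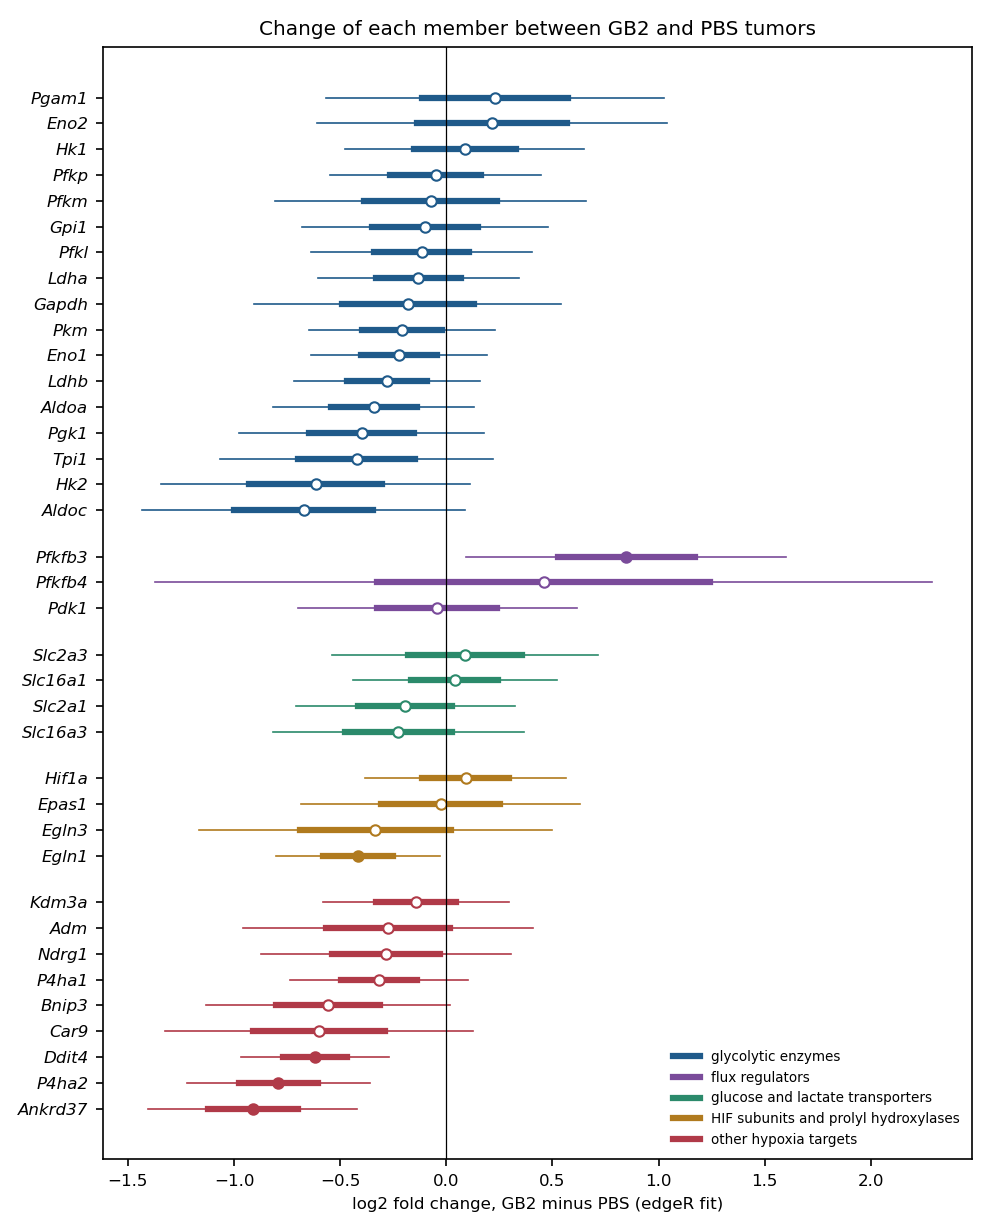
Log2 fold change of each of the 37 members between GB2 and PBS tumors (x axis, edgeR fit, 3 tumors per group), with members on the y axis grouped by role. Circles are the estimates, thick lines 1 standard error, thin lines the 95% interval, and filled circles mark an unadjusted p under 0.05. All 9 other hypoxia targets sit left of 0, from -0.14 to -0.91, while the enzymes spread from -0.67 to 0.23.

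The 9 other hypoxia targets all had lower fitted levels in GB2 tumors, with log2 fold changes between -0.91 and -0.14 (median -0.56), against a median of -0.02 over all genes tested. In 4 of the 9, Ankrd37, Ddit4, P4ha1 and P4ha2, every GB2 tumor lay below every PBS tumor. Over all 38 member rows the groups did not overlap in 7 (18.4%, against 15.3% of all genes), with GB2 tumors below PBS tumors in 6 (15.8%, against 6.68%).

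Ankrd37 (ENSMUSG00000050914) encodes an ankyrin repeat protein and is a target of HIF-1. Its level was 22.7, 16.5 and 18.4 CPM in PBS tumors 1, 2 and 3 and 9.42, 10.1 and 11.1 CPM in GB2 tumors 1, 2 and 3. The lowest PBS tumor was above the highest GB2 tumor. The mean was 19.2 ± 3.17 CPM (SD, n = 3) in PBS and 10.2 ± 0.868 CPM (SD, n = 3) in GB2 tumors, a 1.88-fold lower level. On the log2 scale the difference was -0.91 (standard error 0.21, 95% interval -1.41 to -0.42), and the adjusted p was 0.276 by edgeR and 0.00327 by DESeq2.

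P4ha2 (ENSMUSG00000018906) encodes a catalytic subunit of the prolyl 4-hydroxylase that modifies collagen. It was at 112, 139 and 102 CPM in the PBS tumors and at 60.3, 67.9 and 75.5 CPM in the GB2 tumors, in the order of their numbers. The groups did not overlap. The 1.73-fold lower level corresponds to a log2 fold change of -0.79 (standard error 0.19, 95% interval -1.22 to -0.36), with an adjusted p of 0.279 from edgeR and 0.0136 from DESeq2. Its paralog P4ha1 was at 260, 225 and 225 CPM in the PBS tumors and 200, 211 and 159 CPM in the GB2 tumors. These groups did not overlap either, but the log2 fold change was smaller (-0.32, standard error 0.18) and its edgeR p before adjustment was 0.117. Fibroblasts, a main source of collagen, had markers that were higher in the same GB2 tumors, and their part in the P4ha1 and P4ha2 values was not tested.

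Ddit4 (ENSMUSG00000020108) encodes REDD1, an inhibitor of mTORC1 that is induced by hypoxia and by other stresses. Relative to its mean, Ddit4 showed the least spread of the 3. It was at 185, 188 and 200 CPM in the PBS tumors and 128, 129 and 117 CPM in the GB2 tumors. The means were 191 ± 8.16 CPM and 125 ± 6.67 CPM (SD, n = 3 each), a gap larger than the spread within either group. The level was 1.53-fold lower (log2 fold change -0.62, standard error 0.15), and its adjusted p was 0.294 by edgeR and 0.00146 by DESeq2. For Ankrd37, P4ha2 and Ddit4 alike, the unadjusted edgeR p stayed under 0.05 whichever of the 6 tumors was left out, and the log2 fold changes then ran from -1.01 to -0.76, from -0.88 to -0.65 and from -0.64 to -0.57.

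Car9 encodes carbonic anhydrase 9, a surface enzyme widely used as a marker of hypoxic tumor regions. Car9 was at 252, 540 and 531 CPM in the PBS tumors and 246, 343 and 283 CPM in the GB2 tumors. PBS tumor 1 lay among the GB2 tumors, so the groups overlapped. The log2 fold change of -0.60 (standard error 0.31) had an unadjusted p of 0.0918, and without PBS tumor 1 it was -0.87 with an unadjusted p of 0.00152 (adjusted p 0.233, edgeR). With PBS tumor 2 omitted it was -0.43.

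Bnip3, a mediator of mitophagy, was at 700, 474 and 500 CPM in the PBS tumors and 320, 485 and 333 CPM in the GB2 tumors. Only GB2 tumor 2 reached the PBS range, and the log2 fold change was -0.56 (standard error 0.25, 95% interval -1.13 to 0.02). Without that tumor it was -0.77 (unadjusted p 0.0236, edgeR adjusted p 0.84), and without PBS tumor 1 it was -0.35. Ndrg1, a stress-response gene strongly induced by hypoxia, had a log2 fold change of -0.28. That of Adm, which encodes the vasodilator peptide adrenomedullin, was -0.27. Kdm3a, a histone H3 lysine demethylase, had -0.14. All 3 had groups that overlapped, 95% intervals that include 0 and a smallest edgeR adjusted p of 0.810. Single tumors moved these values widely. The Ndrg1 value ran from -0.55 without GB2 tumor 2 to -0.12 without GB2 tumor 1, that of Adm from -0.43 with PBS tumor 1 omitted to -0.04 with GB2 tumor 3 omitted, and that of Kdm3a from -0.26 with PBS tumor 1 omitted to -0.04 with PBS tumor 3 omitted.

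**Figure D2:**
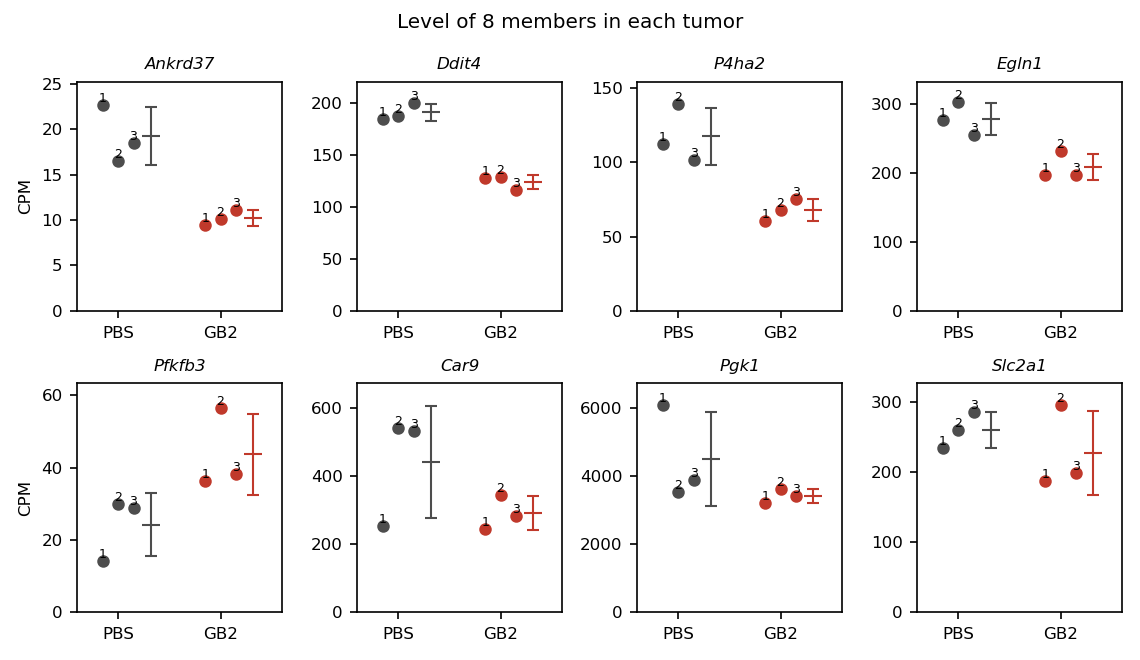
Level of 8 members in each tumor, with CPM on the y axis of every panel (starting at 0) and the group on the x axis. Points are single tumors labelled with their number, and bars show the mean and SD of 3 tumors. Ankrd37, Ddit4, P4ha2 and Egln1 separate the groups downward and Pfkfb3 upward, while Car9, Pgk1 and Slc2a1 overlap.

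Of the 4 genes of the oxygen sensing step, the prolyl hydroxylase Egln1 was lower and the HIF alpha subunits were at similar levels. Egln1 (ENSMUSG00000031987) encodes PHD2, the main oxygen sensor for HIF-1 alpha and itself a HIF target. It was at 277, 302 and 255 CPM in the PBS tumors and 197, 231 and 197 CPM in the GB2 tumors, with no overlap. Its log2 fold change was -0.42 (standard error 0.17, 95% interval -0.80 to -0.03), with an adjusted p of 0.685 from edgeR and 0.301 from DESeq2. Its unadjusted edgeR p stayed under 0.05 only in the omissions of PBS tumor 1 or PBS tumor 3. Egln3, a hydroxylase that hypoxia induces strongly, was scarce at 8.90, 8.67 and 6.31 CPM in the PBS tumors and 3.98, 5.54 and 9.41 CPM in the GB2 tumors. GB2 tumor 3 had the highest Egln3 level of all, and the log2 fold change of -0.33 had a standard error of 0.36 and ran from -0.74 with that tumor omitted to -0.09 with GB2 tumor 1 omitted.

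Hif1a was at 339, 283 and 441 CPM in the PBS tumors and at 373, 388 and 371 CPM in the GB2 tumors. The GB2 values lay inside the PBS range. The log2 fold change of 0.09 had a 95% interval from -0.38 to 0.57, and it was -0.05 without PBS tumor 2. Epas1, which encodes HIF-2 alpha and is prominent in endothelium, was at 23.2 ± 7.11 CPM in PBS and 22.8 ± 5.2 CPM in GB2 tumors (SD, n = 3 each). Its log2 fold change was -0.03 (95% interval -0.68 to 0.63) with the main scaling and 0.02 with total counts only, while most endothelial markers were higher in GB2 tumors.

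Promoters of the 5 members with an unadjusted p under 0.05 were read from RefSeq (GRCm38.p6), because the DNA core to which HIF binds can be located in them. Each window runs from 250 bases before to 50 bases after an annotated transcript start and is given 5′ to 3′ on the strand of the gene. Capitals mark the HIF core motifs ACGTG and GCGTG on either strand, which read CACGT and CACGC where they lie on the opposite strand. Pgk1, a glycolytic enzyme and a classical HIF target whose groups overlapped, is shown for comparison, and of the 2 windows of Pfkfb3 the more upstream one is printed.
Ankrd37 (chr8:45999801-46000100, - strand): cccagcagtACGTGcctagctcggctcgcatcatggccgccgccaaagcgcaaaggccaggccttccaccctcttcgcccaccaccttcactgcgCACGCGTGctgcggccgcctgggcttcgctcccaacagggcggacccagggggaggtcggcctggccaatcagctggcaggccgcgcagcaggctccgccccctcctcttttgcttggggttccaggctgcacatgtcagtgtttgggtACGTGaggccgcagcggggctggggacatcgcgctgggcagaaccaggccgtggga
P4ha2 (chr11:54100674-54100973, + strand): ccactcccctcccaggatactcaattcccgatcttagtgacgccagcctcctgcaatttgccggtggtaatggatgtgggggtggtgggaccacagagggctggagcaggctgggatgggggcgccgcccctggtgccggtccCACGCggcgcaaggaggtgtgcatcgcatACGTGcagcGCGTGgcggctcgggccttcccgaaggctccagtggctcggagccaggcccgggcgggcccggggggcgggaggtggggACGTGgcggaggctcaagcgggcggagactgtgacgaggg
Ddit4 (chr10:59951721-59952020, - strand): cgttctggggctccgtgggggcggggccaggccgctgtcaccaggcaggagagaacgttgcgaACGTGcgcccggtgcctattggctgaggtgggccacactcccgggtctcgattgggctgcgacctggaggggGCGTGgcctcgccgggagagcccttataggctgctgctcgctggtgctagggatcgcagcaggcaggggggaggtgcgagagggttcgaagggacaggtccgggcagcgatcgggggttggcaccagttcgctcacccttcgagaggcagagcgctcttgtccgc
Egln1 (chr8:124949205-124949504, - strand): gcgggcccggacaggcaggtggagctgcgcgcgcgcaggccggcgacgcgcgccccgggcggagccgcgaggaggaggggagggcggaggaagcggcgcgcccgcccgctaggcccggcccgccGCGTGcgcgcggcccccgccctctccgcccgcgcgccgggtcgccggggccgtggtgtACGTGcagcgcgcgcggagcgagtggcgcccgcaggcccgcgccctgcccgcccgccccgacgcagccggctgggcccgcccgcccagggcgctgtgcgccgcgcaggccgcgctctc
Pfkfb3 (chr2:11553880-11554179, - strand): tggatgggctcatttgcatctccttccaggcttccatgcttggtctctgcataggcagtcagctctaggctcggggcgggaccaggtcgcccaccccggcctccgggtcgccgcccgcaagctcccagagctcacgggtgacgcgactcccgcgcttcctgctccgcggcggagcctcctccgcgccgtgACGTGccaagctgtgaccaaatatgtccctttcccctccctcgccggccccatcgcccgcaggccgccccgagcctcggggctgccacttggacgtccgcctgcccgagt
Pgk1 (chrX:106186850-106187149, + strand): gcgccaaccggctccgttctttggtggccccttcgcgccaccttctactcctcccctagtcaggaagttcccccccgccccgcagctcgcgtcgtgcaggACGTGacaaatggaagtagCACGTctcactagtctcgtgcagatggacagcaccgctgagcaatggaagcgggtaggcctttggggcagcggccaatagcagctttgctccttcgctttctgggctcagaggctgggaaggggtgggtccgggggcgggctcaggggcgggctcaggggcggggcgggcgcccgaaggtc

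The Ankrd37 and P4ha2 windows hold 4 matches each, those of Ddit4, Egln1 and Pgk1 hold 2 each, and the printed window of Pfkfb3 holds 1. The other window of Pfkfb3 (chr2:11502041-11502340), which is not printed, holds 4, as many as Ankrd37 and P4ha2, and 2 of them overlap in 1 CACGTG. In Ankrd37 an ACGTG begins 6 bases before the start site, and the opposed GCGTG pair overlaps in 1 run of capitals. RefSeq windows were found for 34 of the 37 names. Epas1, Ndrg1 and Slc2a3 had none. At least 1 match lay in 39 of the 49 member windows (79.6%), against 43.8% of all 32851 windows of the same length and 58.0% of the windows of tested genes. By role, 21 of 28 windows of the enzymes (75.0%) and 8 of 10 windows of the other hypoxia targets (80.0%) held a match. ACGTG itself lay in 53.1% of member windows, 19.6% of all windows and 24.0% of those of tested genes. Some matches belong to CACGTG, the E-box of other helix-loop-helix factors, which contains ACGTG on both strands and lay in 6 member windows (12.2%), in 7.15% of all windows and in 9.24% of those of tested genes. Several members are known HIF targets and were chosen as such, so their share is a description of the list, and no binding was measured.

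Of the 17 glycolytic enzymes, 14 had a fitted change below 0 and 3 had one above 0 (against 51.7% and 48.3% of all genes). The number below 0 was 13 with total counts only, 12 with limma on FPKM, and between 11 (with PBS tumor 2 or GB2 tumor 3 omitted) and 16 (with GB2 tumor 2 omitted) when each tumor was left out. The log2 fold changes ran from -0.67 to 0.23 with a median of -0.18. None of the 17 had an unadjusted p under 0.05 (6.94% of all genes), and in 1, Eno1, the groups did not overlap (15.3% of all genes, 6.68% with GB2 tumors below). Together they made up 30530 to 37120 CPM in the PBS tumors and 25230 to 30380 CPM in the GB2 tumors. The highest GB2 tumor was just below the lowest PBS tumor.

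In FPKM, which allows genes to be compared because it is divided by transcript length, the enzymes differed widely in level. In the PBS tumors Pgk1 (phosphoglycerate kinase) was at 1847 ± 427, Tpi1 (triosephosphate isomerase) at 1418 ± 393, Aldoa (aldolase) at 1196 ± 122 and Eno1 (enolase) at 1105 ± 29.1 FPKM (SD, n = 3 each). In this order each gene overlapped its neighbour within 1 SD. Pkm (pyruvate kinase) followed at 851 ± 18.0, Ldha (lactate dehydrogenase) at 775 ± 12.0 and Pgam1 (phosphoglycerate mutase) at 552 ± 255 FPKM, of which Pkm was separated from Eno1 and Ldha by more than their SDs and Pgam1 was not separated from Ldha. Lower levels were found for Gpi1 (glucose phosphate isomerase) at 274 ± 78.2, for the phosphofructokinase Pfkl at 126 ± 9.08 and for Hk2 (hexokinase) at 88.6 ± 27.2 FPKM.

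The entry step of glucose is shared by Hk1 and Hk2, of which Hk2 is the form induced in tumors and by HIF. Hk2 was at 808, 548 and 378 CPM in the PBS tumors and 283, 394 and 455 CPM in the GB2 tumors. The spread among the PBS tumors was as wide as the gap between the groups, and the log2 fold change of -0.62 had a standard error of 0.31 (unadjusted p 0.0868). It was -0.28 without PBS tumor 1 and -0.84 without PBS tumor 3 (unadjusted p 0.021, edgeR adjusted p 0.455). Hk1 was at 334, 531 and 542 CPM in the PBS tumors and 454, 591 and 450 CPM in the GB2 tumors, a log2 fold change of 0.09. Hk2 made up 77.6%, 59.6% and 50.0% of the summed FPKM of the pair with PBS, against 47.1%, 48.8% and 59.1% with GB2. PBS tumor 1 held the highest share, and the others overlapped.

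Phosphofructokinase commits glucose carbon to glycolysis. Pfkl made up 65.9% ± 6.11 of the summed FPKM of Pfkl, Pfkp and Pfkm in PBS and 65.1% ± 1.72 in GB2 tumors (SD, n = 3 each). The log2 fold changes were -0.12 for Pfkl, -0.05 for Pfkp and -0.07 for Pfkm, and all 3 changed sign when single tumors were left out. Pfkm is also the muscle form. The 10 skeletal muscle markers summed to 128 to 216 CPM in PBS and 254 to 292 CPM in GB2 tumors, and their part in the Pfkm values was not tested. Gpi1, the isomerase before this step, had a log2 fold change of -0.10.

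Aldoa was at 4302, 3834 and 3159 CPM in the PBS tumors and 2803, 3388 and 2721 CPM in the GB2 tumors, a log2 fold change of -0.34 (standard error 0.20). Its paralog Aldoc, a form typical of brain that hypoxia can induce, was at 75.3, 118 and 193 CPM in the PBS tumors and 84.1, 88.0 and 70.4 CPM in the GB2 tumors. Aldoc had the lowest fitted change of the enzymes (-0.67, standard error 0.33). Without PBS tumor 1 the value was -0.93 with an unadjusted p of 0.00424 (adjusted p 0.279, edgeR). Without PBS tumor 3 the fitted change shrank to -0.26. Aldoc made up 3.13% ± 1.85 of the summed aldolase FPKM in PBS and 2.37% ± 0.201 in GB2 tumors.

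Tpi1 and Pgk1 shared 1 high tumor. Tpi1 was at 6012, 3454 and 3327 CPM in the PBS tumors and 2757, 3240 and 3546 CPM in the GB2 tumors. Pgk1 was at 6100, 3541 and 3904 CPM in the PBS tumors and 3212, 3638 and 3419 CPM in the GB2 tumors. PBS tumor 1 was far above the other 5 in both genes, and without it the log2 fold changes went from -0.42 to -0.08 for Tpi1 and from -0.40 to -0.11 for Pgk1. The same tumor had the lowest Pgam1, at 598 CPM against 1493 and 1369 CPM in the other PBS tumors and 1295, 1570 and 1191 CPM in the GB2 tumors. The Pgam1 log2 fold change was 0.23 with all tumors and -0.07 without PBS tumor 1.

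Gapdh, often used as a reference gene, was at 374, 641 and 483 CPM in the PBS tumors and 280, 564 and 478 CPM in the GB2 tumors. Its level varied more than 2-fold from tumor to tumor within a log2 fold change of -0.18 between groups (95% interval -0.90 to 0.54). Its FPKM of 113 ± 35.9 in the PBS tumors was below that of the enzymes of neighbouring steps. In the table, 3 processed pseudogenes of Gapdh took 33.7% to 48% of the counts summed over Gapdh and these copies, so its level is uncertain. With the copies added, the log2 ratio of the group means was -0.22 instead of -0.18. The copies of Pgam1 took 4.20% to 5.11%, Eno1b 3.65% to 4.84% of the Eno1 sum and the copies of Pgk1 1.36% to 2.27%. For each of these 3 genes the log2 ratio moved by less than 0.01 when copies were added.

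Eno1 was at 6949, 6010 and 6265 CPM in the PBS tumors and 5161, 5890 and 5425 CPM in the GB2 tumors. No tumor crossed between the groups, but the difference had a 95% interval of -0.64 to 0.19 (log2 fold change -0.22, standard error 0.18, unadjusted p 0.248). Eno2, the neuronal enolase, was at 21.2 to 54.3 CPM over all tumors with a log2 fold change of 0.22 that was -0.24 without GB2 tumor 2. Pkm had a log2 fold change of -0.21 (-0.11 with GB2 tumor 1 omitted) and Ldha one of -0.13, which ran from -0.28 to -0.0036 when each tumor was omitted. Ldha, the lactate-forming subunit, was at 2956, 2653 and 2682 CPM in the PBS tumors and 2065, 2494 and 3012 CPM in the GB2 tumors, so the GB2 group held both the lowest and the highest value. Its share of the summed FPKM of Ldha and Ldhb was 72.8% ± 1.56 in PBS and 74.3% ± 5.85 in GB2 tumors, and the log2 fold change of Ldhb was -0.28 (-0.14 with PBS tumor 1 omitted).

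**Figure D3:**
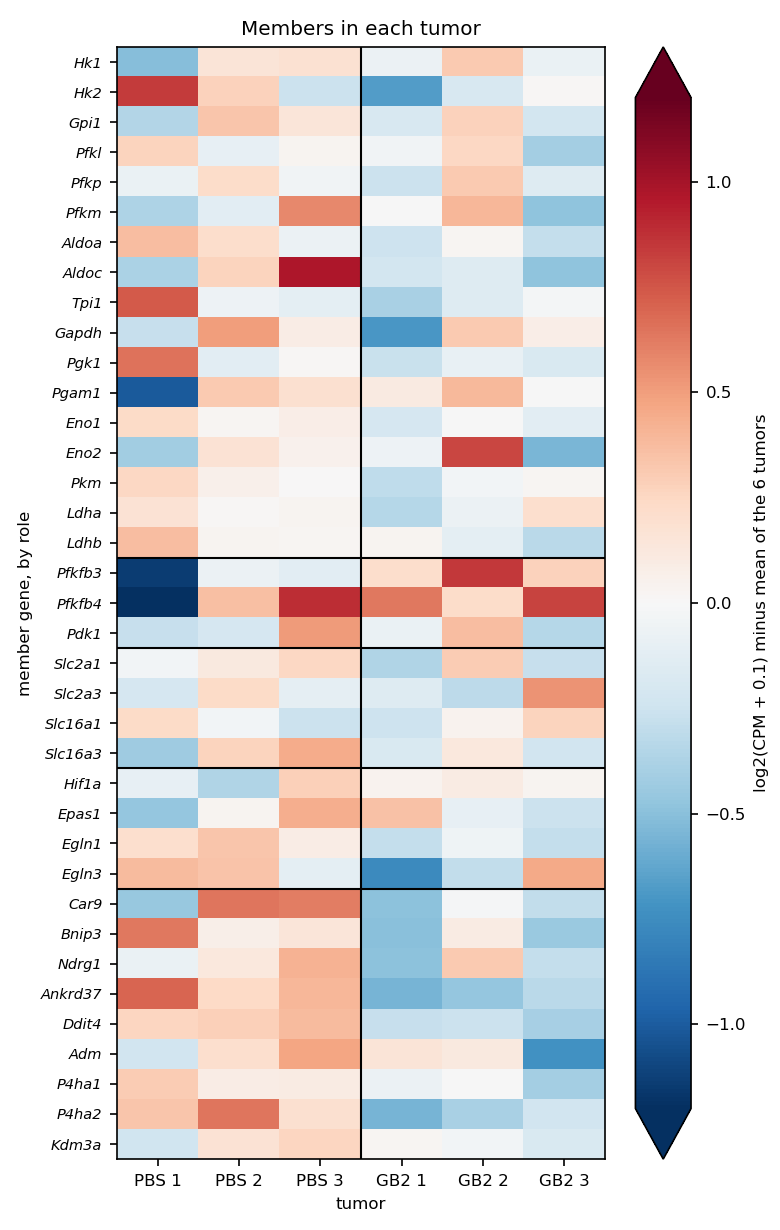
Deviation of each member (rows, grouped by role in the order of enzymes, flux regulators, transporters, HIF subunits with hydroxylases, and other hypoxia targets) from its mean over the 6 tumors (columns), on the log2(CPM + 0.1) scale with colours limited to 1.2 in each direction. PBS tumor 1 has the highest value in 8 of 17 enzymes and the lowest in 3, and GB2 tumor 1 has the lowest value in 8 enzymes and in 5 of 9 other hypoxia targets.

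Of the 3 regulators of flux, Pfkfb3 was higher in GB2 tumors and the others overlapped between groups. Pfkfb3 (ENSMUSG00000026773) encodes the kinase that makes fructose 2,6-bisphosphate, the strongest activator of phosphofructokinase. It was at 14.2, 29.8 and 28.8 CPM in the PBS tumors and 36.4, 56.6 and 38.1 CPM in the GB2 tumors. All GB2 tumors lay above all PBS tumors, which held for 1 member row (2.63%) against 8.61% of all genes. The level was 1.80-fold higher, with a log2 fold change of 0.85 (standard error 0.32, 95% interval 0.09 to 1.6) and an adjusted p of 0.666 from edgeR and 0.353 from DESeq2. The log2 fold change was 0.59 without PBS tumor 1, which had the lowest Pfkfb3 level, and the unadjusted p stayed under 0.05 in every omission of a tumor except that of GB2 tumor 2, which had the highest. Pfkfb3 is also expressed in macrophages and endothelium, whose markers were higher in the same tumors, and their part was not tested.

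Pfkfb4, a related enzyme, was at 0.490, 5.52 and 7.99 CPM in the PBS tumors and 6.69, 5.00 and 7.59 CPM in the GB2 tumors. PBS tumor 1 lay more than 10-fold below every other tumor, and the log2 fold change was 0.46 with it and -0.06 without it. Pdk1, a HIF target, encodes a kinase that limits the oxidation of pyruvate in mitochondria. It was at 208 ± 66.7 CPM in PBS and 202 ± 51.6 CPM in GB2 tumors (SD, n = 3 each). Its log2 fold change of -0.04 had a 95% interval from -0.70 to 0.61.

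None of the 4 transporters had an unadjusted p under 0.05, and their groups overlapped. Slc2a1, the glucose transporter GLUT1, was at 235, 260 and 285 CPM in the PBS tumors and 187, 296 and 198 CPM in the GB2 tumors. GB2 tumor 2 had the highest level and the other GB2 tumors the lowest. The log2 fold change was -0.19 with a 95% interval from -0.71 to 0.32, and it ran from -0.43 without GB2 tumor 2 to -0.07 without GB2 tumor 1. Slc2a3 (GLUT3) was at 23.9 ± 3.88 and 25.4 ± 8.53 CPM, Slc16a1 (the lactate transporter MCT1) at 141 ± 24.0 and 145 ± 25.3 CPM and Slc16a3 (MCT4, the hypoxia-induced lactate exporter) at 288 ± 83.7 and 246 ± 34.4 CPM in PBS and GB2 tumors, in that order (SD, n = 3 each). The Slc16a3 log2 fold change was -0.23 with all tumors and -0.43 without PBS tumor 1 (unadjusted p 0.0268, adjusted p 0.451, edgeR), but -0.04 with PBS tumor 3 omitted and -0.34 with GB2 tumor 2 omitted.

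The enzymes were then set against the other hypoxia targets within each tumor. The mean log2 CPM of the 17 enzymes was 9.72, 9.82 and 9.80 across the PBS tumors and 9.46, 9.82 and 9.51 across the GB2 tumors, and the groups overlapped because of GB2 tumor 2. The mean of the 9 targets was 7.09, 7.23 and 7.28 across the PBS tumors and 6.65, 6.88 and 6.59 across the GB2 tumors, with no overlap. The enzymes were lower by 0.18 and the targets by 0.50 on the log2 scale. The difference of both means within a tumor was 2.63, 2.59 and 2.52 across the PBS tumors and 2.82, 2.94 and 2.92 across the GB2 tumors, or 2.58 ± 0.06 against 2.89 ± 0.07 (SD, n = 3 each). It widened by 0.32, and by 0.29 to 0.35 when each tumor was left out in turn. As the members were chosen with results of these tumors known, no p is given for this difference. It rested in part on Ankrd37, P4ha2 and Ddit4. These 3 were set aside after their values were seen. They had the lowest fitted changes of the 9 targets, so leaving them out had to shrink the widening. Without them the difference was 2.22, 2.09 and 1.96 across the PBS tumors and 2.19, 2.24 and 2.40 across the GB2 tumors. The groups overlapped, and the means were 2.09 ± 0.13 and 2.27 ± 0.11 (SD, n = 3 each), a widening of 0.18.

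**Figure D4:**
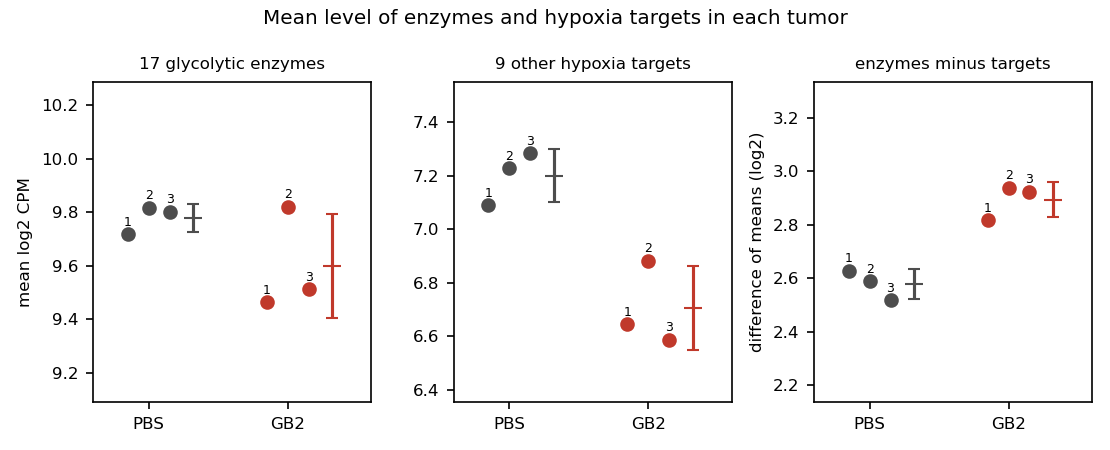
Mean log2 CPM of the 17 glycolytic enzymes (left), of the 9 other hypoxia targets (middle) and their difference (right) in each tumor, with the group on the x axis and every y axis spanning 1.2 log2 units around its own mean. Points are tumors labelled with their number, and bars show the mean and SD of 3 tumors. The targets and the difference separate the groups, at 2.52 to 2.63 in PBS and 2.82 to 2.94 in GB2 tumors for the difference, while the enzymes overlap.

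Further genes of the pathway came from 4 lists. Of 30 further hypoxia targets, 12 had a fitted change above 0 and 18 below 0, with a median log2 fold change of -0.16, and 4 were higher and 3 lower at an unadjusted p under 0.05 (4.69% and 2.24% of all genes). Lox, the lysyl oxidase that crosslinks collagen, was at 6.97, 3.97 and 3.71 CPM in the PBS tumors and 19.7, 15.1 and 27.0 CPM in the GB2 tumors (log2 fold change 2.08, standard error 0.35, edgeR adjusted p 0.190). Fibroblasts are a main source of Lox, and all 10 fibroblast markers were higher in the same tumors (median log2 fold change 1.5), whose part in the Lox values was not tested. Angptl4 (an inhibitor of lipoprotein lipase) and Tmem45a (a membrane protein) were also higher, with log2 fold changes of 1.33 and 1.39. The edgeR adjusted p was 0.282 for Angptl4 and 0.292 for Tmem45a. DESeq2 gave Lox, Angptl4 and Tmem45a an adjusted p under 0.05, from 5.99e-06 to 0.00784. The 3 lower genes were Higd1a (a mitochondrial protein of the respiratory chain, -0.88), Hmox1 (heme oxygenase, -0.42) and Vegfa (the main angiogenic factor, -0.67). Their adjusted p values were 0.603, 0.615 and 0.584 by edgeR and 0.238, 0.127 and 0.225 by DESeq2, in that order. Vegfa falls outside the rule for named genes, because its groups overlapped, and was named after its values were seen. It was at 356, 489 and 514 CPM in the PBS tumors and 245, 356 and 253 CPM in the GB2 tumors.

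Lox, Angptl4 and Tmem45a had low levels in the PBS tumors, at most 6.97 CPM, whereas the 3 lower genes were at 116 CPM or more in every PBS tumor. Among 13 further components of the HIF pathway, 1 had an unadjusted p under 0.05, a share near the 6.94% of all genes. This was Vhl, the ubiquitin ligase subunit that removes HIF alpha, with a log2 fold change of -0.49 (standard error 0.20, edgeR adjusted p 0.690). Of 12 tested isozymes with restricted tissue distribution, 1 had such a p, which is also near that share. Hk3, the hexokinase of myeloid cells, was at 1.42, 1.21 and 0.453 CPM in the PBS tumors and 4.03, 4.49 and 5.55 CPM in the GB2 tumors (log2 fold change 2.19, edgeR adjusted p 0.234, DESeq2 adjusted p 5.21e-04). It moved with the macrophage markers above, whose part was not tested. None of 18 genes of gluconeogenesis and pyruvate handling had such a p, and their median log2 fold change was -0.16.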

How the data were processed

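Poly-A selected, stranded, paired-end libraries of 6 tumors were made, per the labels, and the submitters' processing notes name cutadapt 1.9, HISAT2 2.2.1, StringTie 2.1.6, DESeq2, edgeR and mm10 without their roles. The authors deposited estimated counts, which are whole numbers not scaled between tumors (7017 values of 4 against 2984 of 3 and 2017 of 5, so about 4 counts stand for 1 read pair), and FPKM values, which the authors divided by transcript length and library total. The table names no build. Of the 38 member rows, 1 has the same start and end in the GRCm38 annotation, so no position of the table is printed, and the promoter windows alone carry coordinates. All per-sample columns were used.

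Genes kept by filterByExpr (minimum count 10; 19602 genes) were scaled by TMM and compared in R 4.3.3 with glmQLFit and glmQLFTest of edgeR 4.0.16 and Benjamini-Hochberg adjustment over all of them. Standard errors and 95% intervals came from the test statistic. CPM use the TMM library sizes, and mean log2 CPM a prior count of 2. The common dispersion of 0.164 corresponds to a coefficient of variation of 40.5% between tumors. The labels do not state whether tumors of a group came from separate mice, and p values measure the spread between these 3 samples. Alternatives were DESeq2 1.42.0, limma 3.58.1 on log2(FPKM + 1) and log2(FPKM + 0.1) with at least 1 FPKM in 3 tumors, other scalings and filters, counts divided by 4, the replicate block and each tumor left out. The computations were tested on simulated data. The named genes were the members, and of the 4 pathway lists at most 8 genes with an unadjusted p under 0.05 and groups that do not overlap, by smallest p, of which 1 is not reported here. The members and lists were chosen with earlier results of these data known.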

Additional observations from a re-analysis of the deposited data

How the results depend on the processing

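DESeq2 called 385 genes at an adjusted p under 0.05 and at least 2-fold, where edgeR called 0 (1360 at an unadjusted p under 0.05) and every other setting called 0, and 0 of the 385 were members. The number of members with an unadjusted p under 0.05 was 5, between 4 and 6 with the other settings and between 4 and 8 when each tumor was left out, with 8 reached without PBS tumor 1. The median changes of the enzymes (-0.28 to -0.11 with each tumor left out) and of the other hypoxia targets (-0.64 to -0.43) kept their sign in every setting, and the widening between both sets did too, though scaling cannot move the last.

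Of 570 values of single members under the alternatives, 535 kept their direction. With total counts only, Pfkp was at 9.45e-04 and Epas1 at 0.0195. With limma on log2(FPKM + 1) and log2(FPKM + 0.1), in that order, Pfkp was at 0.01014 and 0.01031, Pfkm at 0.01689 and 0.01834, Pdk1 at 0.04578 and 0.04861 and Epas1 at 0.0505 and 0.0705. When each tumor was left out, the sign changed in Hk1 (-0.0924 to 0.21), Gpi1 (-0.28 to 0.055), Pfkl (-0.28 to 0.038), Pfkp (-0.24 to 0.0616), Pfkm (-0.31 to 0.26), Gapdh (-0.39 to 0.0625), Pgam1 (-0.0688 to 0.46), Eno2 (-0.24 to 0.48), Pfkfb4 (-0.0579 to 1.09), Pdk1 (-0.26 to 0.26), Slc2a3 (-0.22 to 0.25), Slc16a1 (-0.0878 to 0.19), Hif1a (-0.0451 to 0.29) and Epas1 (-0.22 to 0.22). The cause was not tested. The other 24 member rows kept their sign, the 9 other hypoxia targets among them.

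Sharing a number did not make tumors alike. Deviations of same-numbered tumors from their group means correlated across genes at 0.03, 0.15 and -0.24, and PBS tumor 1 correlated best with GB2 tumor 3 (0.24). With the replicate block, edgeR called 0 genes, and 4 members and 957 of all genes had an unadjusted p under 0.05.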

Other observations

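Pklr, the pyruvate kinase of liver and red cells, in the list of restricted isozymes, was listed at 0 in GB2 tumor 1, against 37 to 168 counts in the other tumors. Gapdh took between 0.0289% and 0.0646% of a library, and within the GB2 group its share ran from 0.0289% to 0.0560%.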
